A study of Homo sapiens with 30 samples.

Results

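HepG2 is a human liver cancer line, named hepatocellular carcinoma in the sample labels and hepatoblastoma in the study's text. The comparison was between its DMSO-treated transfection controls harvested 24 h and 6 h after DMSO was added, 6 of the 30 mRNA libraries of the series. They were taken by their labels alone: the 3 libraries of the mimic control with DMSO (MC_DMSO, 24 h) and the 3 of the inhibitor control with DMSO (IC_DMSO, 6 h). The study asked how 3 microRNAs, among them miR-200c-3p and miR-222-5p, act on the response of these cells to sorafenib, a kinase inhibitor used in liver cancer, and these libraries were its vehicle controls. All 6 came from the same line, transfected with Lipofectamine RNAiMAX, with the medium changed 6 h later and DMSO added 24 h after transfection. IC_DMSO cells carried a control oligonucleotide for miRNA inhibitors and were lysed 30 h after transfection, and MC_DMSO cells carried a control for miRNA mimics and were lysed 48 h after it. The 18 h of extra culture and the kind of control oligonucleotide therefore changed together and cannot be told apart in these libraries. The study's text calls its replicates independent, while neither it nor the labels say whether they were separate cultures. The p-values therefore measure a spread between libraries. That spread was estimated over 12 libraries, these 6 and those of both controls treated with 10 µM sorafenib.

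HepG2 cells keep many functions of hepatocytes: they secrete fibrinogen, apolipoproteins and other plasma proteins, and they make cholesterol and fatty acids from acetyl-CoA. The genes of sterol synthesis are driven by the transcription factor SREBP-2, which is set free when membrane cholesterol is low, and those of plasma proteins by HNF1, HNF4 and related liver factors. Growth factors in serum act through MAP kinases on immediate early genes and, with MYC, on the making of ribosomes and on cell division. Shortage of amino acids raises the targets of ATF4, and glucose raises TXNIP.

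The cells carried the markers of the line, and the summed level of 10 HepG2 and hepatocyte markers was 12600 to 14100 CPM (counts scaled to a common library size) in IC_DMSO and 15800 to 17300 CPM in MC_DMSO. Of 19 markers of blood, endothelial, stromal and other cells, 9 had 0 counts in all 6 libraries and 14 stayed under 5 CPM, with sums of 60.6 to 138 and 94.4 to 132 CPM. Total counts were 3938764 to 4933999 in IC_DMSO and 3941570 to 7498222 in MC_DMSO, so that 3 counts, the floor used for absence, stood for 0.4 to 0.762 CPM. Mitochondrial transcripts took 19.66 to 20.87% of counts at 6 h and 20.92 to 23.73% at 24 h. Several libraries stood apart in genes that answer to sorafenib. The metallothionein gene MT1B had 81, 154 and 0 counts in IC_DMSO replicates 1, 2 and 3 and 0, 94 and 3 counts in MC_DMSO replicates 1, 2 and 3, against 305 to 936 counts in the sorafenib-treated libraries of both controls and 0 in all 3 DMSO libraries of the miR-200c-3p inhibitor. MT1M had 108, 138 and 4 counts at 6 h and 44, 124 and 22 counts at 24 h. CYP1A1, a drug-metabolising enzyme, had 237, 143 and 283 counts at 6 h but 14, 52 and 7 counts at 24 h. MC_DMSO replicate 2 thus held more of all 3 transcripts than the other 24 h libraries, and IC_DMSO replicates 1 and 2 held more of both metallothionein transcripts than replicate 3. Whether reads of other libraries had reached these 3 was not tested. Results are given with all 6 libraries, and counts of calls also without MC_DMSO replicate 2 and without all 3 doubted libraries.

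**Figure D1:**
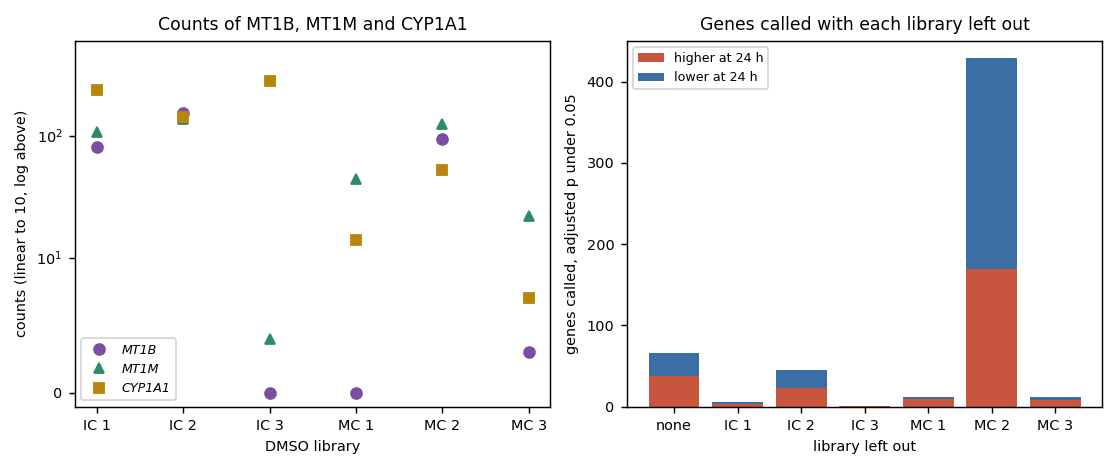
Left, counts of MT1B, MT1M and CYP1A1 in each of the 6 DMSO libraries (axis linear to 10 and logarithmic above); MT1B was at 94 in MC_DMSO replicate 2 but at 0 and 3 in the other 24 h libraries. Right, genes called at an adjusted p under 0.05 with all libraries and with each one left out; 429 genes were called without MC_DMSO replicate 2 and 1 without IC_DMSO replicate 3.

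Of 12500 genes tested with edgeR's quasi-likelihood test at a Benjamini-Hochberg adjusted p under 0.05, 38 (0.304%) were higher and 28 (0.224%) lower at 24 h. The genes that rose included 5 of the listed secreted liver proteins and 4 of the sterol genes, and those that fell included the EGF receptor ligand gene AREG, the glucose transporter genes SLC2A1 and SLC2A3, and 2 listed genes of ribosome assembly, DDX21 and EBNA1BP2. At an unadjusted p under 0.05 there were 942 higher (7.54%) and 1031 lower (8.25%), and in 1491 genes (11.9%) all 3 libraries of 24 h lay above all 3 of 6 h, with 1343 (10.7%) the other way. Without MC_DMSO replicate 2, edgeR called 169 of 12977 genes higher (1.3%) and 260 lower (2%), and all 66 genes of the full fit were among them. Without all 3 doubted libraries, IC_DMSO replicate 3 alone stood for 6 h, so the test took its spread from the other groups and assumed that this library varies as they do. In that fit edgeR called 12 higher and 37 lower, of which 28 were among the 66, and none of the 66 turned direction in either fit. The 66 were chosen in these same libraries, so a turn was hardly possible in either fit. Leaving out other single libraries lowered the count of calls. It fell to 5 genes without IC_DMSO replicate 1, 45 without replicate 2 and 1 without replicate 3. Without MC_DMSO replicate 1 or replicate 3 it fell to 12. A fit of the 6 DMSO libraries alone, with the spread taken from them only, called 16 higher and 4 lower. In bulk RNA, a change in every cell and a change in the share of cells of one state cannot be told apart.

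**Figure D2:**
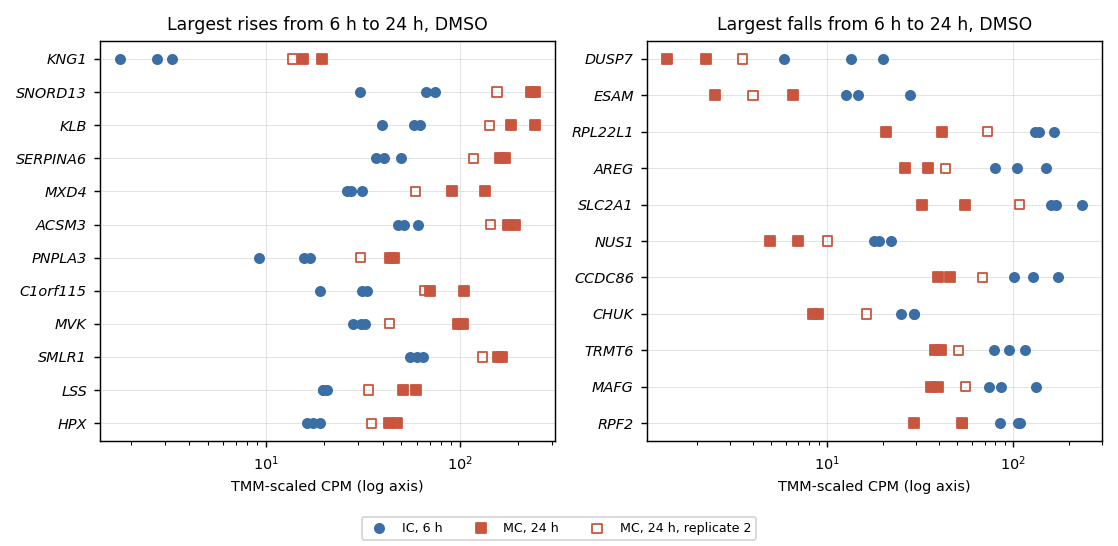
Levels (CPM scaled by TMM, logarithmic axis) of the called genes with the largest rises (left, 12 genes) and falls (right, 11 genes) and at least 10 CPM in the higher group, as 1 point for each library of IC_DMSO at 6 h and MC_DMSO at 24 h. The groups do not overlap in any of these genes, which the rule for naming them required; SERPINA6 ran from 37 to 49.6 CPM at 6 h and from 118 to 172 CPM at 24 h.

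SERPINA6, which encodes corticosteroid-binding globulin, the plasma carrier of cortisol made by the liver, had the smallest adjusted p. It stood at 40.5, 49.6 and 37 CPM in IC_DMSO and at 172, 118 and 162 CPM in MC_DMSO. That was a 3.56-fold rise (log2 fold change 1.83, SE 0.19, n = 3 libraries a group; edgeR adjusted p 0.000231), and it was the only gene still called in each of the 6 fits that left out 1 library. Every library of 24 h held more than every library of 6 h, and MC_DMSO replicate 2 was the lowest of the 24 h libraries. The gene (ENSG00000170099) lies at chr14:94304248-94323389 on the minus strand of GRCh38.

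Genes of secreted liver proteins were higher at 24 h. Of the 63 listed, 52 were tested and 5 were called, all higher (KNG1, FGA, HPX, APOC3 and A2M). At an unadjusted p under 0.05 by edgeR 20 were higher and 0 lower, beside 7.54% and 8.25% of all genes tested. The median log2 fold change was 0.40, beside 0.02 over all genes tested. In 25 members all 3 libraries lay above and in 0 below, beside 11.9% and 10.7% of all genes. Without MC_DMSO replicate 2, 11 of 54 were called, again all higher; without all 3 doubted libraries 3 of 54 were.

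FGA encodes the alpha chain of fibrinogen, the clotting protein. Its level was 186, 213 and 172 CPM at 6 h and 502, 359 and 489 CPM at 24 h (log2 fold change 1.24, SE 0.19; edgeR adjusted p 0.00685). The genes of the other two chains, which neighbour it on chromosome 4, had smaller differences that were not called, 0.56 for FGB (adjusted p 0.0731 by edgeR) and 0.73 for FGG (0.0692). KNG1, the precursor of bradykinin, was low at 6 h, with 1.77, 3.26 and 2.73 CPM, and stood at 15.5, 13.7 and 19.4 CPM at 24 h (log2 fold change 2.65, SE 0.41; edgeR adjusted p 0.00685). This was the largest rise among the named genes, and MC_DMSO replicate 2 lay close to the other 24 h libraries. HPX, which binds free haem, went from 17.5, 19.1 and 16.2 CPM to 43.3, 35.2 and 47.7 CPM, and A2M, a protease inhibitor of plasma, from 277, 296 and 228 CPM to 472, 499 and 558 CPM. APOC3, an apolipoprotein that slows the clearance of triglyceride-rich particles, was at 62.9, 100 and 48 CPM against 148, 127 and 195 CPM. Albumin was not called: ALB was at 3230, 3130 and 2890 CPM at 6 h and 3780, 4120 and 3390 CPM at 24 h (log2 fold change 0.29, SE 0.13; edgeR adjusted p 0.274). AFP, the fetal albumin, differed by 0.15 (SE 0.16, edgeR adjusted p 0.695), with overlapping groups.

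The promoters of FGA and SERPINA6 are shown because both hold GTTAAT, a short form of the site bound by the liver factor HNF1. Each sequence is 5′ to 3′ on the strand of the gene, from RefSeq on GRCh38.p14, with 250 bases before the start and 50 after it, and capitals mark GTTAAT or its reverse complement.
FGA (chr4:154590693-154590992, minus strand): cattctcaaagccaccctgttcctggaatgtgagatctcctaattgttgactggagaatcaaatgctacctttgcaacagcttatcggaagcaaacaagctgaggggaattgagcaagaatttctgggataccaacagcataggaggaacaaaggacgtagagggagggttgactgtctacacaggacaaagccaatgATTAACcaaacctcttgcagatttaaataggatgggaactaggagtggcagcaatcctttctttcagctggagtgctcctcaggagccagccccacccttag
SERPINA6 (chr14:94323287-94323586, minus strand): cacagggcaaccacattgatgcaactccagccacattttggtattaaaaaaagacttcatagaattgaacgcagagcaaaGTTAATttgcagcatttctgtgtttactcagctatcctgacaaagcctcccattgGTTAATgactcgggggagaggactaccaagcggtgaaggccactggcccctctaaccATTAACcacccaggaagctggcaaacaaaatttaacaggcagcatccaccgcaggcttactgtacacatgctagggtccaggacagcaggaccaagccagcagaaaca

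The letters GTTAAT on either strand were in 6.88% of all 35116 promoters of this length. Among secreted liver proteins they were in 14 of 58 promoters (24.1%; 44 of the 63 genes had a promoter in the table), and among the called genes in 6 of 36 promoters of those higher and 0 of 31 promoters of those lower at 24 h. The 6 genes called higher were ANG, C11orf54, DAB2, FGA, FKBP1B and SERPINA6. In FGA the match ended 47 bases before the start, and SERPINA6 held 3 matches, none overlapping.

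KLB, ACSM3 and SULT2A1 were also called higher. KLB is the co-receptor through which FGF19 and FGF21 act on hepatocytes and fat cells, and was at 58.4, 62.4 and 39.8 CPM at 6 h and 185, 143 and 244 CPM at 24 h (log2 fold change 1.83, SE 0.33; edgeR adjusted p 0.0194). ACSM3, a mitochondrial enzyme that activates medium-chain fatty acids, was at 51.5, 60.7 and 48 CPM against 177, 144 and 192 CPM. SULT2A1, which sulphates steroids and bile acids, was at 46, 33.1 and 36.5 CPM against 95.7, 87.6 and 74.1 CPM. In none of the 3 did the groups overlap. SULT2A1 and the alcohol dehydrogenase ADH6 were the 2 called members of 30 tested drug and steroid metabolism genes (median 0.14). There 7 were higher and 3 lower at an unadjusted p under 0.05, beside 7.54% and 8.25% of all genes tested. CYP1A1 was among those 3, at 46.6, 33.3 and 70.3 CPM at 6 h and 1.84, 13 and 1.07 CPM at 24 h. It was not called with all libraries (log2 fold change -3.38, SE 0.85; edgeR adjusted p 0.0748) but was without MC_DMSO replicate 2 (-5.09, adjusted p 0.0107).

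PPARA, the receptor that turns on fatty acid oxidation in fasting, was the 1 called member of 26 liver transcription factors (median 0.24). It stood at 18.9, 19.1 and 18.6 CPM at 6 h and 41.8, 34.7 and 40.2 CPM at 24 h, and the groups did not overlap (log2 fold change 1.05, SE 0.22; edgeR adjusted p 0.0428). Its peroxisomal target EHHADH also rose, from 27.7, 31 and 22.9 CPM to 53.2, 43.4 and 68.1 CPM (1.02, SE 0.22; adjusted p 0.0412). Both were the called members of the lipid oxidation list, in which 18 of 19 tested members had a positive difference, with a median of 0.28. At an unadjusted p under 0.05, 7 of them were higher. Among all 12500 genes tested 6503 had a positive difference and 7.54% were higher at that threshold. CREB3L3, a liver factor that acts with PPARA, was at 10, 8.84 and 5.47 CPM against 44.3, 12.2 and 40.4 CPM. It was not called with all libraries (2.00, SE 0.46; edgeR adjusted p 0.0572), while without MC_DMSO replicate 2 it was (2.34, adjusted p 0.00758). HNF4A itself was at 173, 214 and 201 CPM at 6 h and 198, 182 and 211 CPM at 24 h, with the groups overlapping.

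Transcripts of sterol synthesis enzymes were higher at 24 h at several steps of the pathway. Of 24 tested genes of sterol synthesis and uptake, 4 were called, all higher: MVK, LSS, SQLE and FDFT1. At an unadjusted p under 0.05, 13 were higher and 0 lower, beside 7.54% and 8.25% of all genes tested. In 13 all 3 libraries of 24 h lay above all 3 of 6 h, beside 11.9% of all genes. The median log2 fold change was 0.62. Without MC_DMSO replicate 2, 8 were called, and without all 3 doubted libraries 0 were by edgeR, with 11 at an unadjusted p under 0.05 and a median of 0.76.

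MVK, mevalonate kinase, showed the largest difference of the list. It was at 28.1, 31 and 32.3 CPM at 6 h and at 104, 43.4 and 98.4 CPM at 24 h (log2 fold change 1.44, SE 0.30; edgeR adjusted p 0.0345), so MC_DMSO replicate 2 lay far below the other 24 h libraries, though above every 6 h library. LSS, which closes squalene epoxide into lanosterol, was at 19.7, 20.7 and 19.6 CPM against 50.8, 33.7 and 59.4 CPM (1.27, SE 0.25; adjusted p 0.0345). SQLE makes that epoxide, and was at 93.2, 108 and 85 CPM against 164, 155 and 205 CPM (0.88, SE 0.17; edgeR adjusted p 0.0278). FDFT1, squalene synthase and the first step given over to sterols, was at 160, 180 and 144 CPM against 276, 233 and 259 CPM (0.67, SE 0.14; edgeR adjusted p 0.0345). In none of these 4 genes did the groups overlap. IDI1, which isomerises the isoprene unit, was at 36.6, 34.2 and 50.9 CPM against 44.8, 40.4 and 27.7 CPM, with a log2 difference of -0.11, and EBP, a late-step isomerase, differed by -0.16. The groups overlapped in both.

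**Figure D3:**
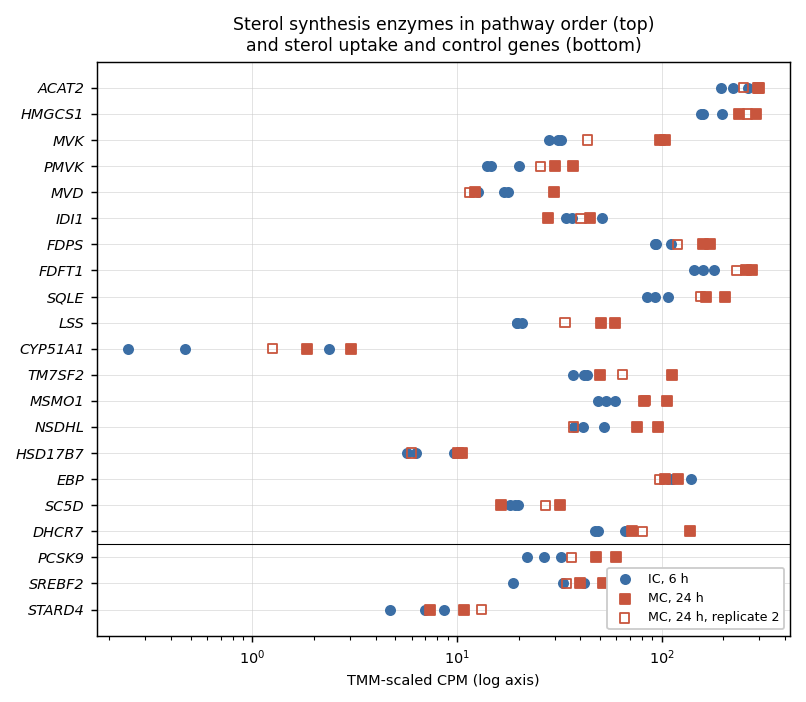
Levels (CPM scaled by TMM, logarithmic axis) of 21 genes of sterol synthesis and uptake, 1 point for each library at 6 h and 24 h, the enzymes in pathway order from ACAT2 to DHCR7 above the line and genes of sterol uptake and control below it. In 11 of the 21 all points of 24 h lie above those of 6 h, among them MVK, FDFT1, SQLE and LSS, while IDI1 and EBP overlap.

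The promoters of MVK and LSS are shown because they hold the CCAAT box, bound by NF-Y, the usual partner of SREBP-2, and in MVK also TCACCCCA, the core of a sterol element. Source, strand and length are as above, and capitals mark CCAAT, TCACCCCA or their reverse complements.
MVK (chr12:109573544-109573843, plus strand): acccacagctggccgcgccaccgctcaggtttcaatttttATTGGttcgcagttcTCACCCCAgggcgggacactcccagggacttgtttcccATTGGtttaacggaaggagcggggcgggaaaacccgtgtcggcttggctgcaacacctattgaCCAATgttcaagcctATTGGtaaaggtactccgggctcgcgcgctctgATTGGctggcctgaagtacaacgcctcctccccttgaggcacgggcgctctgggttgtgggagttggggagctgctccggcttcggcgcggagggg
LSS (chr21:46228725-46229024, minus strand): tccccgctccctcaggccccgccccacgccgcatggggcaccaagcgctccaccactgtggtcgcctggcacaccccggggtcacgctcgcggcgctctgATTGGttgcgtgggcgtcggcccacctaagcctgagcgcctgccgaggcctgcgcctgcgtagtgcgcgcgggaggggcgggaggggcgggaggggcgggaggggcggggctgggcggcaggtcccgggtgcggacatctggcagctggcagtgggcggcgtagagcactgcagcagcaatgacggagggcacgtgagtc

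CCAAT on either strand was in 18 of the 23 promoters of the sterol list (78.3%), beside 34.6% of all promoters. Among the called genes CCAAT was in 15 of 36 promoters of those higher (41.7%) and 13 of 31 of those lower (41.9%). A promoter sequence was at hand for 18 of the 25 genes of the sterol list. TCACCCCA was in the promoters of MVK and SREBF2 alone in the list, and in 1.54% of all. The promoters of IDI1 and EBP hold CCAAT too, and neither gene rose. In MVK the 5 CCAAT matches and the TCACCCCA match did not overlap.

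Of 19 tested members of fatty acid and triglyceride synthesis 1 was called, PNPLA3, and the median was 0.49. At an unadjusted p under 0.05, 9 were higher and 0 lower, beside 7.54% and 8.25% of all genes tested. PNPLA3, a lipase of lipid droplets and a target of SREBP-1c, was at 15.7, 16.8 and 9.19 CPM at 6 h and 43.9, 30.7 and 45.6 CPM at 24 h (log2 fold change 1.53, SE 0.31; edgeR adjusted p 0.0345). Fatty acid synthase, FASN, was at 476, 572 and 417 CPM against 786, 602 and 781 CPM and was not called (0.57, SE 0.17; adjusted p 0.128). SREBF1 itself overlapped between the groups, with a log2 difference of 0.02.

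AREG and DUSP7, both outside the list of growth factor and immediate early genes, were among the largest falls. AREG, a ligand of the EGF receptor, was at 105, 79.8 and 149 CPM in IC_DMSO and 34.8, 43.4 and 26.3 CPM in MC_DMSO (log2 fold change -1.68, SE 0.24; edgeR adjusted p 0.00611). DUSP7, a phosphatase that switches off ERK, was at 13.4, 5.82 and 19.9 CPM against 2.23, 3.5 and 1.38 CPM (-2.50, SE 0.47; adjusted p 0.0255). In both genes IC_DMSO replicate 3 was the highest library and MC_DMSO replicate 3 the lowest.

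The wider list of growth factor and immediate early genes had 26 tested members and a median log2 fold change of -0.70. By edgeR 0 were called with all libraries. At an unadjusted p under 0.05, 14 were lower and 1 higher (JUND), beside 8.25% and 7.54% of all genes tested. In 11 all 3 libraries of 24 h lay below all 3 of 6 h, beside 10.7% of all genes. Without MC_DMSO replicate 2, 3 were called, all lower. IER3, an early gene of growth factor and NF-kappa B signalling, was at 497, 540 and 966 CPM at 6 h and 358, 318 and 285 CPM at 24 h (-1.06, SE 0.27; edgeR adjusted p 0.0782). EGR1, the classic serum-response gene, was at 11.2, 11.6 and 24.4 CPM against 4.6, 5.49 and 3.67 CPM (-1.78, SE 0.63; adjusted p 0.174). MYC was at 26.2, 18.9 and 35.5 CPM against 12.9, 17.2 and 4.9 CPM (-1.23, SE 0.43; edgeR adjusted p 0.175). Each of the 3 lay lower in every 24 h library, and none was called. Cyclin D1 did not share the pattern: CCND1 differed by 0.03 (SE 0.17), with overlapping groups.

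MXD4 moved the other way from MYC. It encodes a partner of MAX that competes with MYC and is found in resting and differentiating cells, and was at 26.3, 31.2 and 27.6 CPM at 6 h and 91.8, 58.9 and 135 CPM at 24 h. The rise was called (log2 fold change 1.75, SE 0.27; edgeR adjusted p 0.00685), and MC_DMSO replicate 2 was again the 24 h library nearest to 6 h.

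The glucose transporter genes SLC2A3 and SLC2A1 fell. SLC2A3 (GLUT3) was at 500, 496 and 615 CPM at 6 h and 194, 315 and 288 CPM at 24 h (log2 fold change -1.02, SE 0.17; edgeR adjusted p 0.0139). SLC2A1 (GLUT1) was at 169, 159 and 233 CPM against 55.3, 108 and 32.3 CPM (-1.53, SE 0.33; edgeR adjusted p 0.0451). The groups overlapped in neither gene. SLC2A2 (GLUT2), the main glucose transporter of hepatocytes, lay the other way, at 27.5, 25.8 and 30.8 CPM against 46.6, 42.2 and 33.4 CPM, and was not called (0.54, SE 0.33; edgeR adjusted p 0.461). SLC2A1 and SLC2A3 were the 2 called members of 20 tested genes of glucose sensing and gluconeogenesis, whose median was 0.37, and TXNIP, which glucose induces strongly, stood at 104, 95.4 and 105 CPM against 97.8, 104 and 94.1 CPM (-0.04, SE 0.21). Of 17 tested glycolysis genes 5 were lower and 0 higher at an unadjusted p under 0.05, none called by edgeR, with a median of -0.29; LDHA, lactate dehydrogenase, was at 490, 453 and 568 CPM against 290, 395 and 350 CPM (-0.55, SE 0.17; adjusted p 0.122). SLC2A1 was also 1 of the 2 called members of 22 tested hypoxia genes (median -0.51), with 7 lower and 1 higher at an unadjusted p under 0.05. For comparison, 8.25% of all genes tested were lower and 7.54% higher at that threshold. Of the 22, 16 had negative differences, among them VEGFA (-0.81) and ADM (-0.9), and 6 had positive ones, among them BNIP3 (0.12) and NDRG1 (0.38). None of these 4 was called.

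ANKRD1, a target of the growth regulator YAP, was at 463, 455 and 678 CPM at 6 h and 236, 333 and 298 CPM at 24 h (log2 fold change -0.88, SE 0.17; edgeR adjusted p 0.0278). It was the 1 called member of 20 YAP and TEAD targets, of which 5 were lower and 1 higher at an unadjusted p under 0.05. The small GTPase gene RHOB (-1.02, adjusted p 0.0194 by edgeR) and the adhesion scaffold gene NEDD9 (-1.04, 0.0206) were called lower as well. NF-kappa B targets had 6 lower and 1 higher of 13 at that threshold and none called by edgeR, with a median of -0.57. For both lists, the shares of all genes tested were 8.25% lower and 7.54% higher.

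Genes of ribosome assembly were lower at 24 h. Of 37 tested, 2 were called, DDX21 and EBNA1BP2, both lower. At an unadjusted p under 0.05, 18 were lower and 0 higher, beside 8.25% and 7.54% of all genes tested. In 20 all 3 libraries of 24 h lay below those of 6 h, beside 10.7% of all genes, and the median was -0.34. Without MC_DMSO replicate 2, 10 were called, all lower. DDX21, a helicase of ribosomal RNA transcription and processing, was at 927, 823 and 851 CPM at 6 h and 446, 663 and 431 CPM at 24 h (log2 fold change -0.76, SE 0.16; edgeR adjusted p 0.0345). EBNA1BP2, which helps to assemble the large subunit, was at 209, 164 and 233 CPM against 106, 128 and 75.9 CPM (-0.97, SE 0.21; edgeR adjusted p 0.0494). CCDC86, a nucleolar protein gene outside the list, was at 128, 101 and 173 CPM against 45.6, 68.4 and 39.2 CPM (-1.40, SE 0.24; edgeR adjusted p 0.0138). The groups did not overlap in any of the 3. Of 78 tested genes of the ribosomal proteins themselves 9 were lower and 1 higher at an unadjusted p under 0.05, beside the same shares of all genes. None was called by edgeR, and the median was -0.06. With MC_DMSO replicate 2 left out, 3 of the 78 were called, all lower, with 19 lower and 1 higher at an unadjusted p under 0.05. RPL22L1, a paralog of a ribosomal protein, was called apart from that list, at 131, 137 and 165 CPM against 41.2, 72.9 and 20.8 CPM (-1.70, SE 0.32; adjusted p 0.0249). Its near copy RPL22 differed by 0.11 (SE 0.14), and how reads that match both were counted is not given, so the value of RPL22L1 is uncertain.

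The promoters of DDX21 and CCDC86 are shown because both hold CACGTG, the E-box that MYC and MAX bind, close to the start. Source and length are as above, and capitals mark CACGTG, which reads the same on both strands.
DDX21 (chr10:68956397-68956696, plus strand): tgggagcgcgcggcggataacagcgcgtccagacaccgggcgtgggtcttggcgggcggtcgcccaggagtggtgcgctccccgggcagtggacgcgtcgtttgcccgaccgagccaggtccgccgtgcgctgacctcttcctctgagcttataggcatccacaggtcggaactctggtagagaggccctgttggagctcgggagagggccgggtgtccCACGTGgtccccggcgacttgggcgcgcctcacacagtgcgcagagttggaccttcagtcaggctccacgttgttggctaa
CCDC86 (chr11:60841863-60842162, plus strand): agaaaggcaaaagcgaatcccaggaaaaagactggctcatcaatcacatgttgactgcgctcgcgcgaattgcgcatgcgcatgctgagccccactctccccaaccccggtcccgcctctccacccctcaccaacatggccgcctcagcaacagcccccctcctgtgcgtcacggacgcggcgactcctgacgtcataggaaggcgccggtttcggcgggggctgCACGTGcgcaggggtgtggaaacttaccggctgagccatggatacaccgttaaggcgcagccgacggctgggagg

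CACGTG was in 7.26% of all promoters. It was in 13 of 31 promoters (41.9%) of the genes called lower, which stood for 10 of the 23 such genes with a promoter in the table: AKAP12, CCDC86, DDX21, EBNA1BP2, ESF1, MAFG, NOL7, NUS1, SERPINE2 and TRMT6. Among the genes called higher it was in 4 of 36 promoters (11.1%), and among genes of ribosome assembly in 14 of 40 (35.0%). The AP-1 site TGACTCA, in 4.95% of all promoters, was in 0 of 31 promoters of the genes called lower. All matches are counts of letters and not of bound sites.

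Genes of cell division had small negative differences. Of 46 tested genes of DNA replication and S phase 15 were lower and 1 higher (RPA1) at an unadjusted p under 0.05, with a median of -0.25. Of 46 mitosis genes 9 were lower and 0 higher, with a median of -0.19. Among all genes tested 8.25% were lower and 7.54% higher. edgeR called 0 genes of either list with all libraries, and 3 and 4 genes, all lower, without MC_DMSO replicate 2. MKI67, the proliferation marker, was at 370, 292 and 277 CPM at 6 h and 241, 283 and 267 CPM at 24 h (log2 fold change -0.25, SE 0.17; edgeR adjusted p 0.506). PCNA, the clamp of the replication fork, was at 229, 164 and 284 CPM against 160, 129 and 112 CPM (-0.75, SE 0.22; adjusted p 0.107). CCNB1 differed by -0.39 (SE 0.20) and the cell cycle inhibitor CDKN1A by 0.04 (SE 0.19), neither called. The groups overlapped in MKI67 but not in PCNA.

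Differences in the amino acid response were mostly negative, with a median of -0.30 over 40 tested ATF4 targets and none called by edgeR. At an unadjusted p under 0.05, 14 were lower and 0 higher, beside 8.25% and 7.54% of all genes tested. ASNS, asparagine synthetase, was at 33.6, 47.2 and 48.5 CPM at 6 h and 16.5, 27.5 and 16.7 CPM at 24 h (log2 fold change -1.11, SE 0.26; edgeR adjusted p 0.0607). Without MC_DMSO replicate 2, 6 of 41 were called, all lower, ASNS among them (-1.40, adjusted p 0.0136).

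Other lists had at most 1 call. Oncofetal genes had 1 called of 13, PEG10, an imprinted gene high in liver cancer, at 1420, 1450 and 1210 CPM at 6 h and 2520, 1760 and 2890 CPM at 24 h (log2 fold change 0.82, SE 0.17; edgeR adjusted p 0.0395). Interferon-stimulated genes had 8 higher and 1 lower of 32 at an unadjusted p under 0.05 (median 0.34), autophagy and lysosome genes 7 higher and 2 lower of 34 (0.17), and NRF2 targets 1 higher and 7 lower of 23 (-0.01). p53 targets had 3 higher and 5 lower of 25, nuclear respiratory chain genes 4 and 6 of 74, mitochondrial DNA genes 4 and 1 of 15, urea cycle genes 3 and 1 of 17, Wnt targets 0 and 5 of 13, endoplasmic reticulum chaperones 0 and 4 of 27, heat shock genes 0 and 4 of 19, extracellular matrix genes 3 and 5 of 32 and the insulin-like growth factor family 3 and 4 of 13, with medians from -0.28 to 0.39. None of these members was called by edgeR. For all these lists, the shares of all genes tested at that threshold were 7.54% higher and 8.25% lower. The 10 hepatocyte markers all had positive differences, 3 of them (ALB, FGB and TTR) at an unadjusted p under 0.05. The 10 metallothionein and zinc genes had none at that threshold in either direction (median -0.43). In the fit without MC_DMSO replicate 2, 3 of them were called lower, 6 were lower at an unadjusted p under 0.05 and the median was -1.05, while without the 3 doubted libraries 0 were called by edgeR, 2 were higher at that threshold and the median was 0.32. ACTA2, smooth muscle actin and 1 of the 19 markers of other cells, was called higher, at 44.2, 58.7 and 45.7 CPM against 98.7, 80.6 and 118 CPM. COL1A2, COL3A1, DCN and VWF had 0 counts in all 6 libraries. COL1A1 was at 2.56, 4.19 and 5.47 CPM against 0, 4.24 and 4.29 CPM. PDGFRB was at 1.38, 1.4 and 3.23 CPM against 1.71, 0.25 and 0.306 CPM. PECAM1 and CDH5 reached at most 1.99 and 0.931 CPM. The part of other cells in the rise of ACTA2 was not tested. ACTA2 overlaps FAS on the other strand. HBB was at 4.13, 7.45 and 75.3 CPM in IC_DMSO and at most 4.24 CPM in MC_DMSO. In IC_sorafenib it was at 6.04, 4.56 and 34.3 CPM, so replicate 3 was the highest in both groups of the inhibitor control. Why was not tested.

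Calls in the lists were more frequent without MC_DMSO replicate 2, as they were over all 12977 genes tested, of which 1.3% were called higher and 2% lower. A single call in a list is not read here as a result about that list. Called lower were 6 of 22 hypoxia genes, 4 of 21 YAP and TEAD targets, 3 of 17 glycolysis genes, 3 of 23 NRF2 targets, 2 of 13 NF-kappa B targets and 1 gene each of the p53, Wnt, heat shock, endoplasmic reticulum, extracellular matrix, respiratory chain and mitochondrial DNA lists. Called higher were 4 of 19 lipid oxidation genes, 2 of 19 fatty acid and triglyceride genes and 1 gene each of the hepatocyte marker, interferon and urea cycle lists. Calls in both directions were found in drug and steroid metabolism and in oncofetal genes (2 higher and 1 lower each), in glucose sensing (1 higher and 2 lower) and in liver transcription factors, autophagy and markers of other cells (1 each way). Without all 3 doubted libraries, calls beyond those of the secreted proteins were 2 lower each in hypoxia, glucose sensing and ribosome assembly, 1 lower each in YAP targets, drug metabolism and markers of other cells, 1 higher in oncofetal genes and 1 each way in mitochondrial DNA genes.

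**Figure D4:**
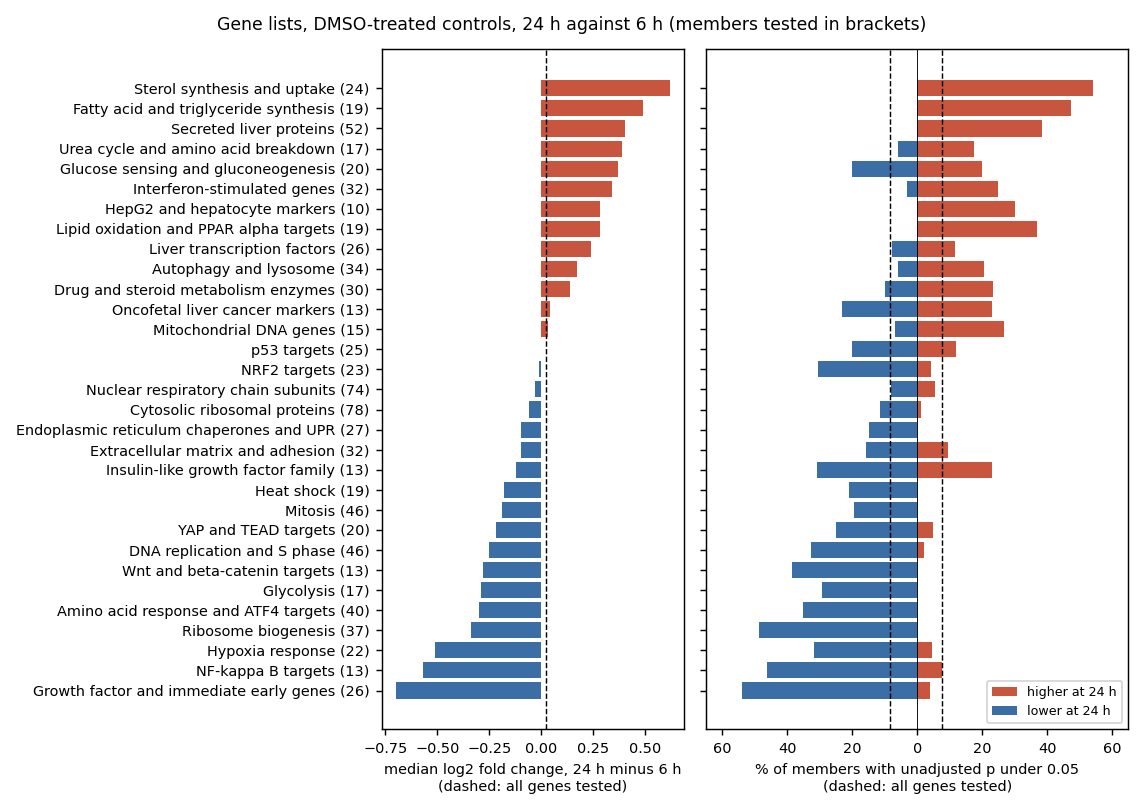
Left, median log2 fold change (24 h against 6 h, DMSO) of each gene list, with the number of tested members in brackets. Right, the percent of members higher (to the right) or lower (to the left) at an unadjusted p under 0.05, with dashed lines at the share over all genes tested, 7.54% and 8.25%; sterol synthesis has the highest median, 0.62, and growth factor and immediate early genes the lowest, -0.70.

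Some called genes share exons with a neighbour, and the strand used in counting is not given in the sources used here, so their reads cannot be parted with certainty: MVK with MMAB, ACSM3 with ERI2, CCDC86 with PTGDR2, EBNA1BP2 with CFAP57, EXOSC9 with CCNA2 and NOL7 with RANBP9 on opposite strands, and PNPLA3 with SAMM50, MAFG with SIRT7 and ANG with RNASE4 on the same strand. SNORD13, a small nucleolar RNA at 67.4, 74.5 and 30.6 CPM against 244, 156 and 234 CPM, is not a polyadenylated message and its value is uncertain. ID4, an inhibitor of differentiation, was called lower on few counts, 8, 5 and 7 at 6 h and 0 in each library of 24 h, so no fold is given.

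The same pair of times was measured in libraries with active oligonucleotides, M222_DMSO at 24 h (mimic of miR-222-5p) and I200c_DMSO at 6 h (inhibitor of miR-200c-3p), which share no library with the controls. There edgeR called 58 of 13282 genes higher (0.437%) and 76 lower (0.572%). Of the 38 genes that rose in the controls, 36 were higher in M222_DMSO, 24 at an unadjusted p under 0.05 and 5 called, and of the 28 that fell 27 were lower, 22 and 9. The exceptions were HPX, LSS and ID4. The share of same-sign genes over all genes tested was not counted, so these agreements have no baseline. Leaving out 1 library moved the count of calls there between 14 and 297, the highest without M222_DMSO replicate 2, where MT1B had 155 counts against 0 in the other M222_DMSO libraries. Genes chosen as called in one comparison are bound to have larger differences there: those called in the controls had medians of 1.15 and -1.11 there and of 0.58 and -0.77 in M222_DMSO, and those called in M222_DMSO had medians of 1.03 and -1.15 there and of 0.59 and -0.51 in the controls. The 14 genes called in both included SERPINA6, MVK, SQLE, APOC3 and ANG, all higher, and AREG, SLC2A1, SLC2A3, ANKRD1, RHOB, SERPINE2, RPL22L1 and DDX21, all lower. SERPINA6 had a log2 difference of 1.37 there, AREG of -1.4 and MVK of 1.04. A direct test of the gap between both comparisons called 0 genes by edgeR, with 788 at an unadjusted p under 0.05 and 22 called by DESeq2. Oligonucleotide class and time changed together in this pair too. List medians there were 0.46 for sterol genes, 0.21 for secreted liver proteins and -0.59 for growth factor and immediate early genes. Several other lists lay nearer to 0, the median of all genes: ribosome assembly -0.12, hypoxia -0.1, ATF4 targets -0.01 and mitosis -0.01. Glycolysis (0.09) and ribosomal proteins (0.25) had the other sign from the controls. TXNIP, not called in the controls, was lower in M222_DMSO than in I200c_DMSO (-1.08, edgeR adjusted p 0.0347).

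With 10 µM sorafenib in place of DMSO, the same controls showed other differences between the times. The drug was present for 6 h or 24 h, so length of exposure and time in culture changed together here. edgeR called 0 of 12500 genes between MC_sorafenib and IC_sorafenib, with 1503 at an unadjusted p under 0.05 and 140 called by DESeq2. Of the 38 genes that rose in DMSO 15 were higher there, and of the 28 that fell 17 were lower, with medians of -0.08 and -0.09. Without MC_sorafenib replicate 2, edgeR called 471 genes there, and of the DMSO genes 12 of 38 were higher and 17 of 28 lower. The sterol list had a median of -0.11 with sorafenib and that of secreted liver proteins -0.09, while ATF4 targets had 0.46 (21 of 40 higher and 0 lower at an unadjusted p under 0.05) and growth factor and immediate early genes 0.68 (12 higher and 1 lower of 26). Among all 12500 genes 800 were higher and 703 lower at that threshold with sorafenib. ASNS, at -1.11 in DMSO, had a log2 difference of 1.18 with sorafenib. The test of the difference between both treatments, added after the data were seen, called 27 genes by edgeR, 12 with a more positive and 15 with a more negative difference in DMSO. That count ran from 0 to 284 when 1 library was left out. It was 0 without IC_DMSO replicate 3, IC_sorafenib replicate 1 or 2, MC_DMSO replicate 1 or 3, or MC_sorafenib replicate 3. It was 284 without MC_sorafenib replicate 2. FGA was among the 27 genes, at 1.24 in DMSO and -0.40 with sorafenib (difference 1.64, SE 0.26, edgeR adjusted p 0.024). AREG was too, at -1.68 and 0.66 (difference -2.34, SE 0.33, edgeR adjusted p 0.0179).

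**Figure D5:**
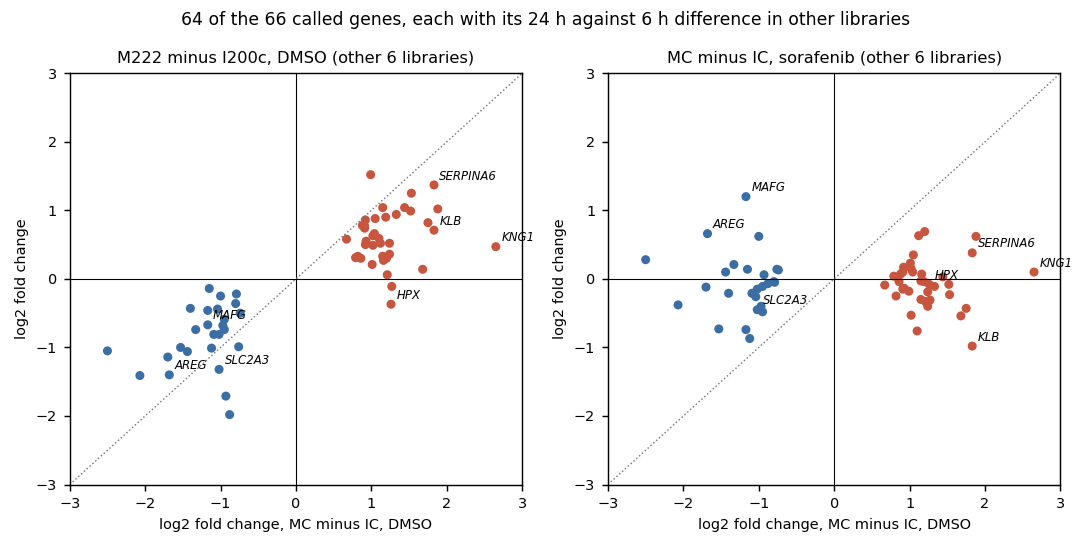
Log2 fold change of 64 of the 66 genes called between MC_DMSO and IC_DMSO (horizontal axis) against that in M222_DMSO minus I200c_DMSO (left) and in MC_sorafenib minus IC_sorafenib (right), 1 point a gene; ID4, with 0 counts at 24 h, is among those not drawn. Over all 66 genes, 36 of 38 that rose and 27 of 28 that fell had the same sign in the comparison on the left, and 15 of 38 and 17 of 28 in that on the right.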

How the data were processed

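HepG2 mRNA was sequenced as QuantSeq 3′ libraries, which tag messages near their 3′ end. The authors trimmed the reads, aligned them to GRCh38 with STAR, ran HTSeq-count and deposited the raw counts of each gene. The annotation release, the strand setting and the use of molecular identifiers are not given in the sources used here, and the authors' normalized table was not used. Of 60199 lines in the count table, 92 spike-in lines were left out. Symbols came from GENCODE 44 (40995 identifiers matched).

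Counts were scaled by TMM and tested with edgeR 4.0.16 in R 4.3.3 (filterByExpr, quasi-likelihood F test, 1 coefficient a group) over the 12 libraries of both controls with DMSO or sorafenib, with Benjamini-Hochberg adjustment over all genes tested. A gene was called at an adjusted p under 0.05. Levels are TMM-scaled CPM, and the SE is the log2 fold change divided by the square root of F. M222 and I200c were fitted in the same way. The scripts were tested on simulated data. Alternatives were other scalings and filters, DESeq2 1.42.0, other sets of libraries, a replicate block and each library left out.

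The genes named were the 12 called genes with the largest rises and the 12 with the largest falls among those at 10 CPM or more in the higher group without overlap, up to 4 members of each list with the smallest p, and a fixed set. Some genes that the rule names are not reported here, though they stay in the counts. Other members named in the text were chosen after their values were seen. The comparison and the gene lists (liver, lipid, growth, stress, cell cycle, ribosome, signalling and cell type markers) were chosen with earlier results of these data known. Counting error alone sets the floor of 3 counts.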

Additional observations from a re-analysis of the deposited data

Results flagged for a closer look

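In 22 named genes the 24 h against 6 h difference in DMSO differed from that with sorafenib at an edgeR adjusted p under 0.05. The test was added after the data were seen, and the 2 differences share no library. It called 0 genes in several of the fits that left out 1 library, as given above. Values are the log2 difference in DMSO minus that with sorafenib.

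The gap was negative in 10 genes. Stress and amino acid genes among them were ASNS (-2.29), GDF15 (-2.23), CEBPB (-2.01), the NRF2 partner MAFG (-2.36) and thioredoxin reductase TXNRD1 (-1.66). Growth and early response genes were AREG (-2.34), VEGFA (-2.25), IER3 (-1.94), KLF10 (-2.77) and TRIB1 (-1.61). ASNS had a difference of -1.11 in DMSO and of 1.18 with sorafenib, neither called on its own.

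The gap was positive in 12 genes. Liver and lipid genes among them were KLB (2.81), ACSM3 (2.22), FGA (1.64), EHHADH (1.55), SERPINA6 (1.45) and A2M (1.07). The others were MXD4 (2.18), PAQR8 (1.86), C1orf115 (1.61), RELN (1.54), SMLR1 (1.44) and DAB2 (1.43). KLB was 1.83 higher at 24 h in DMSO and had a difference of -0.98 with sorafenib. Adjusted p over the 22 genes ran from 0.0179 to 0.0462 by edgeR.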

How the results depend on the processing

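None of the 66 genes called in the controls reversed under the 16 alternatives, except that the fit of the 6 libraries alone tested 65 of them and not ID4. They were chosen in these same libraries, so a reversal was hardly possible and its absence shows little. Without IC_DMSO replicate 3, 65 of the 66 lost their call, and without IC_DMSO replicate 1, 61 did. The count of 66 rose to 573 with no filter on low counts and 444 with DESeq2, and fell to 20 in a fit of the 6 libraries alone; leaving out 1 library gave 1 to 429. For the sorafenib-treated controls 0 became 261 with no filter and 140 with DESeq2, and 0 to 471 with 1 library left out. For M222_DMSO against I200c_DMSO 134 became 383, 461 and 16 in the same 3 settings, and 14 to 297. The test between both DMSO comparisons went from 0 to 35 with no filter and 22 with DESeq2, and 0 to 24. The difference between treatments went from 27 to 386 and 262, and 0 to 284. CDKN1A changed sign, to -0.02 without IC_DMSO replicate 1 and -0.10 without MC_DMSO replicate 3 (range -0.10 to 0.16 with 1 library left out), as did MT1B (3.51 without the 3 doubted libraries, from -1.35) and the metallothionein median (0.32 without these, 0.1 without IC_DMSO replicate 2, range -1.05 to 0.1 with 1 library left out). The cause was not tested, except that fits with fewer libraries have less information. The MT1B value of 3.51 rests on 0 counts in IC_DMSO replicate 3 and on 0 and 3 counts in MC_DMSO replicates 1 and 3. These counts lie at or below the floor of 3 counts, so no direction is read from that value.

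Between IC_DMSO and MC_DMSO, deviations of same-numbered libraries from their group means correlated at 0.02, 0 and -0.08. With 3 libraries in each mean and some libraries in doubt, these values cannot settle whether the replicate numbers pair the libraries. At 24 h, replicate 2 stood apart in other groups too. CYP1A1 had 52, 62, 64 and 49 counts in replicate 2 of MC_DMSO, MC_sorafenib, M222_DMSO and M222_sorafenib. In replicates 1 and 3 of these groups it had 0 to 14 counts. Why replicate 2 differed was not tested. With the replicate block 60 genes were called, 51 of them among the 66, 200 in M222_DMSO against I200c_DMSO, and 11 in the difference between treatments. Depth limits genes near 3 counts, or 0.4 to 0.762 CPM.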
